A study of Drosophila melanogaster with 8 samples.

Results

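γH2Av, the phosphorylated form of the Drosophila histone variant H2Av, is found in chromatin around DNA breaks, and the regions described here are its ChIP-seq peaks in cultured S2 cells of Drosophila at the telomere ends of chromosome arms 2L, 3L, 3R and X. They were chosen by position alone. Peaks of the 4 ChIP libraries that shared at least 1 bp were merged, and a merged region was kept when it began within the first 2 Mb of 2L, 3L or X (start up to 2000000) or at 25.9 Mb or beyond on 3R (dm3 build). This gave 281 of 4731 regions (5.94%), of which 78 lay on 2L, 90 on 3L, 47 on 3R and 66 on X. The telomere end is the first base of the assembly on 2L, 3L and X. On 3R the highest called position, 27895433, was used in its place, so that distances on 3R are measured from there. The innermost regions kept began 1986 kb (2L), 1967 kb (3L), 1934 kb (3R) and 1987 kb (X) from the end, and the nearest ones left out 2009, 2108, 2010 and 2006 kb from it. "Telomere-proximal" therefore states a position and not a sequence content, since repeats were not analysed here.

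The samples were S2 cells depleted of the linker histone dH1 by RNAi over 8 days (dsRNA given on days 1, 4 and 7, 100 μg) and cells labelled WT, with 2 replicates each. Each replicate had a γH2Av ChIP library and its own input, and peaks had been called in each ChIP library against that input. According to the paper, the control cells of this experiment were untreated, and no control dsRNA was given. In these libraries dH1 depletion and the RNA treatment as such therefore cannot be told apart. Other γH2Av assays of the paper, among them ChIP-qPCR, did include cells given dsRNA against LacZ. The level of dH1 cannot be read from peak lists. Lists held 3733 and 3037 peaks in dH1 RNAi and 3761 and 3925 peaks in WT, for replicates 1 and 2, and the number of reads behind them is unknown.

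In flies H2Av takes the roles that mammals divide between the variants H2A.X and H2A.Z. It is phosphorylated near its C-terminus in chromatin around DNA breaks, and the same residue is also modified at active promoters, so that a peak need not mark a break. Linker histone H1 binds where DNA enters and leaves the nucleosome and helps to compact chromatin. Drosophila telomeres carry no telomerase repeats. They are maintained by arrays of the retrotransposons HeT-A, TART and TAHRE, which are followed inwards by subtelomeric satellite repeats and then by gene-rich euchromatin. Most of the windows described here belong to that euchromatin. In the deposited alignments a read was kept at every site it matched, so peaks on repeated sequence can share reads with other copies.

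First, the positions of the regions were examined. They were not spread evenly, and each arm had its own dense stretch. On 2L, 33 of the 78 regions lay in the outer 500 kb (15 and 18 in the outermost and the next 250 kb), whereas 1 region lay between 1250 and 1500 kb. The 2L window also held the longest stretch without a region, 315 kb between 1184453 and 1499842. On 3L, in contrast, the densest stretches were the innermost, with 26 regions between 1500 and 1750 kb and 20 between 1750 and 2000 kb, against 11 in the outermost 250 kb. On 3R, 19 of the 47 regions lay between 250 and 500 kb from the end and every other 250-kb stretch held 3 to 5. On X, 22 of the 66 regions lay between 1750 and 2000 kb, and the outermost 250 kb held 3. A stretch of 219 kb on X, between 150553 and 369932, held none.

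**Figure D1:**
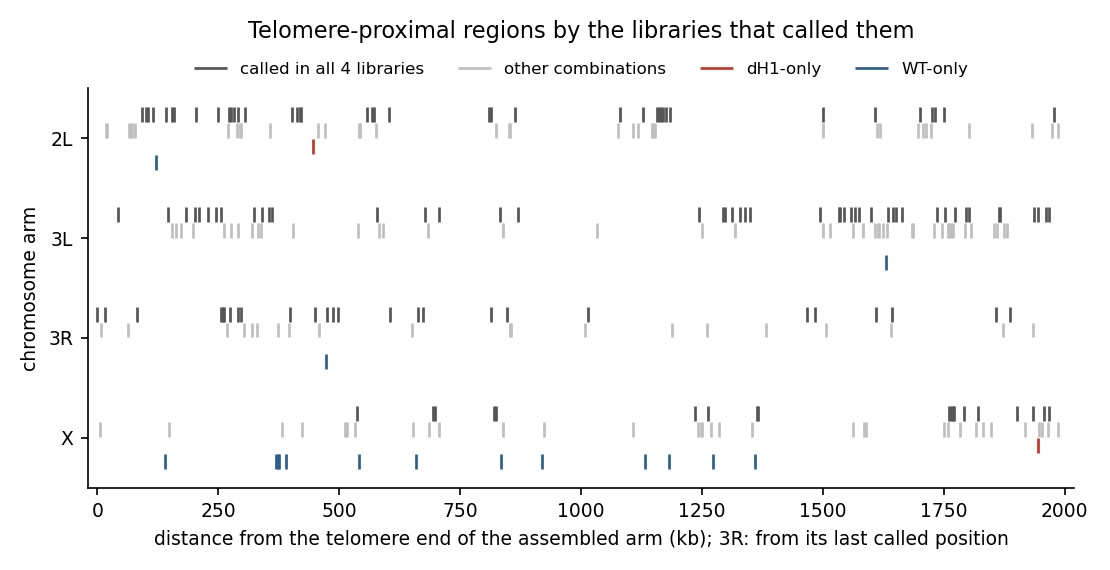
Each tick is a merged γH2Av region, placed by its distance in kb from the telomere end of its arm (horizontal axis), with the arms 2L, 3L, 3R and X from top to bottom and separate rows for the libraries that called it. WT-only regions (blue) number 13 on X and 1 on each of the other arms, and the 2 dH1-only regions (red) lie on 2L and X.

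Neighbouring regions were often close together. Gaps of up to 10 kb made up 68.8% of the gaps between neighbours on 2L, 69.7% on 3L, 64.6% on X and 45.7% on 3R, and the median gap was 3.48, 3.28, 5.68 and 12.3 kb on these arms. The largest group joined by such gaps had 11 regions over 70.5 kb on 3L (1599542 to 1670019), of which 5 were called in all 4 libraries. The largest group on 2L had 9 regions (270624 to 306868), that on X 8 regions (1750289 to 1804725) and that on 3R 5 regions (27618448 to 27639085). Regions are thus not independent of each other, and libraries rather than regions were used as units in the tests.

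The regions were then counted by library. Of the 281 regions, 206 and 165 were called in dH1 RNAi and 197 and 255 in WT, while 74.2 and 59.1% of all merged regions were called in dH1 RNAi and 76.4 and 80% in WT. In the outer 500 kb of the 4 arms, 60 and 51 regions were called in the dH1 RNAi libraries and 69 and 75 in the WT libraries. Between 500 and 1000 kb the numbers were 35 and 27 in dH1 RNAi and 35 and 45 in WT. All 4 libraries thus had fewer regions in the second stretch than in the first. An alternative setting with windows of 1 Mb set the outer 500 kb against the next 500 kb. Peak density over the 4 arms pooled was then 14.1 peaks per Mb higher in the outer stretch, on average over the 4 libraries (exact sign-flip test, two-sided p = 0.13, the smallest value that 4 libraries allow). On 2L, 3L and 3R together, 80 regions lay in the outer 500 kb and 31 in the next 500 kb. X went the other way, with 9 regions in its outer 500 kb and 11 between 500 and 750 kb alone. The planned contrast, between the outer and the inner 1 Mb, had the opposite sign, with a mean of -1.47 peaks per Mb. The mean densities were 26.5 ± 3.70 and 28.0 ± 4.95 peaks per Mb (SD, n = 4 libraries). That difference was smaller than its spread. The outer 1 Mb had fewer peaks in 3 of the 4 libraries, WT replicate 1 being the exception (exact sign-flip p = 0.375).

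**Figure D2:**
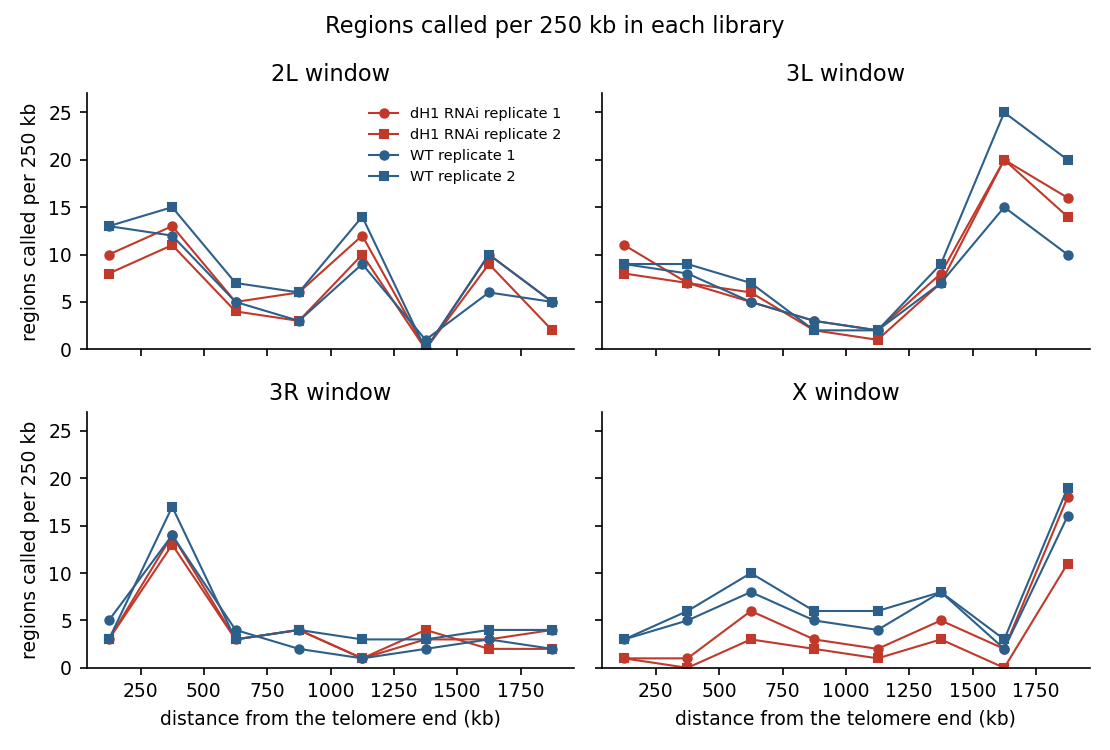
The number of regions called per 250 kb (vertical axis) is plotted against distance from the telomere end in kb for each arm, with dH1 RNAi libraries in red and WT libraries in blue (circles, replicate 1; squares, replicate 2). The densest stretch is the same in every library on 3L (1500 to 1750 kb), 3R (250 to 500 kb) and X (1750 to 2000 kb), and on X the WT libraries lie above both dH1 RNAi libraries in every stretch up to 1500 kb.

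The outermost region differed between arms in strength and in how many libraries called it. On 3L it lay at 41670 to 46252 and was among the strongest of the genome. Its score ranked 66 and 46 in the dH1 RNAi lists and 1 and 270 in the WT lists, where rank 1 is the highest score of a list, and its peak was 4565 to 4582 bp wide in all 4 libraries. On 3R the outermost region, 27893153 to 27895433, was called in all 4 libraries but was weak, with ranks 3185 and 1835 in dH1 RNAi and 3387 and 3652 in WT. On X the outermost region lay at 4491 to 6189 and was called in dH1 RNAi replicate 2 (rank 2911) and in both WT libraries (ranks 3193 and 3132). The outermost region of 2L, 17778 to 18923, was called in WT replicate 1 alone (rank 3215). Regions called in all 4 libraries began 93.1 kb from the end on 2L, with 6 regions farther out, and 537 kb from the end on X, with 12 regions farther out.

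The strongest shared region lay on X. It spanned 1792123 to 1804725 (12603 bp), consisted of 2 peaks in each library, and ranked 35 and 98 in the dH1 RNAi lists and 57 and 8 in the WT lists. It was also the widest of all 281 regions. Next came 3L 706870 to 712568, with ranks 118 and 135 in dH1 RNAi and 175 and 118 in WT, and 3R 27440739 to 27445047, with ranks 85 and 114 in dH1 RNAi and 186 and 146 in WT. On 3L, 677774 to 683450 ranked 83 and 38 in dH1 RNAi and 62 and 197 in WT. Its neighbour in rank, 3L 245231 to 253739, stood at 87 and 62 in dH1 RNAi and at 46 and 210 in WT. The strongest region of 2L, 202929 to 208444, ranked 234 and 143 in dH1 RNAi and 140 and 172 in WT. In each of these 6 regions the ranks of the conditions overlapped, except at 3R 27440739 to 27445047, where both dH1 RNAi ranks were better than both WT ranks.

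Broad regions, counted after the widths were seen, varied between libraries. Of 13 regions of at least 8 kb, 8 lay on 3L, and 7 were called in all 4 libraries, near the 49% of all merged regions. Of the 13, 9 and 9 were called in dH1 RNAi (74.2 and 59.1% of all merged regions) and 12 and 10 in WT (76.4 and 80%). The widest region of 2L that all 4 libraries called, 814694 to 823193, was a single peak of 8187 bp in dH1 RNAi replicate 1, of 8277 bp in WT replicate 1 and of 8500 bp in WT replicate 2. In dH1 RNAi replicate 2 it was split into 2 peaks, the stronger of which was 3332 bp wide. Its ranks were 2797 and 877 in dH1 RNAi and 2520 and 663 in WT, so that the 2 replicates of each condition lay farther apart than the conditions. The widest that all 4 libraries called on 3R, 26000579 to 26008658, ranked 143 and 546 in dH1 RNAi and 123 and 551 in WT. On 3L the widest of all 4 libraries, 1297849 to 1308575, had ranks 635 and 474 in dH1 RNAi and 966 and 640 in WT. A region picked after its values were seen, 3L 341131 to 349286, ranked 108 and 74 in dH1 RNAi and 89 in WT replicate 1, but 3858 in WT replicate 2, where its peak was nonetheless 7960 bp wide.

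Regions called by more libraries were wider. The median region width was 3386 bp for the 132 regions of all 4 libraries, 2588 bp for the 53 of 3 libraries, 2071 bp for the 40 of 2 and 1764 bp for the 56 of a single library. A merged region can only grow as peaks are added to it, so part of this follows from the merging. The median of the best within-list percentile (0 the weakest peak of a list, 100 the strongest) was 77.3, 45.5, 27.2 and 15.2 in the same order. Outside the windows the order was the same, with median widths of 3174, 2283, 2001 and 1793 bp on the rest of the 4 arms.

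Next, the windows were compared with the rest of the same 4 arms within each library. Mean peak density was nearly the same. The windows had 27.1 and 22.6 peaks per Mb in dH1 RNAi and 26.8 and 32.5 in WT, while the rest of the arms had 28.6 and 23.0 in dH1 RNAi and 27 and 30.1 in WT. The mean was 27.3 ± 4.05 peaks per Mb in the windows and 27.2 ± 3.06 outside (SD, n = 4 libraries). Differences ran between -1.44 and 2.37 peaks per Mb, with 1 of 4 libraries above 0 (exact sign-flip p = 1). Peaks covered 8.38 and 6.91% of the windows in dH1 RNAi and 8.28 and 9.82% in WT.

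Peak width and rank were compared in the same way. Median peak width was 2554 ± 65.6 bp in the windows and 2457 ± 68.7 bp outside (SD, n = 4), wider in 3 of 4 libraries (exact sign-flip p = 0.25). The excess was 198 and 175 bp in dH1 RNAi and 37.5 and -24 bp in WT. It averaged 96.6 bp, and 119 bp with a minimum score of 100, 108 bp at equal list size and 133 bp without the centromere-side ends (exact sign-flip p = 0.13 for each of these 3, the smallest possible), but 41 bp in windows of 1 Mb and 62.8 bp without dH1 RNAi replicate 1. The median within-list percentile was 49.6 ± 2.06 in the windows and 51.2 ± 1.75 outside (exact sign-flip p = 0.5). The difference was 1.13 and 0.115 points in dH1 RNAi and -3.40 and -3.91 points in WT. Whether these differences themselves differed between the conditions was not tested. Against the centromere-side 2 Mb of the same arms, the windows had fewer peaks in 3 of 4 libraries, with 27.3 ± 4.05 and 31.8 ± 2.99 peaks per Mb (exact sign-flip p = 0.25). WT replicate 2 was the exception, with 32.5 peaks per Mb in the windows and 29.1 at the centromere-side ends.

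**Figure D3:**
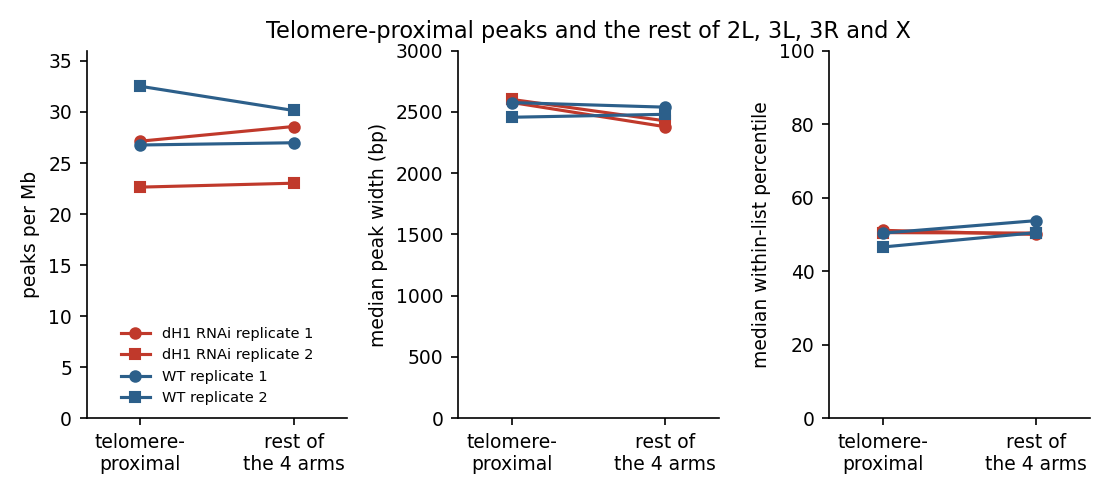
Each line joins a library's value in the telomere-proximal windows (left) to its value on the rest of 2L, 3L, 3R and X (right), for peaks per Mb, median peak width in bp and median within-list percentile. Mean densities are 27.3 and 27.2 peaks per Mb, and in the width panel the windows lie 198 and 175 bp above the rest in dH1 RNAi and 37.5 and -24 bp in WT.

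The windows of the 4 arms were then compared with each other. The 3L window had the widest peaks in each library, with medians of 3069 and 2923 bp in dH1 RNAi and 3638 and 3072 bp in WT. In the other 3 windows the mean of the medians was 2228 and 2355 bp in dH1 RNAi and 2284 and 2183 bp in WT. The difference of 913 ± 326 bp (SD, n = 4) was positive in 4 of 4 libraries (exact sign-flip p = 0.13, the smallest possible). On 3L outside the window the median was 2352 and 2348 bp in dH1 RNAi and 2525 and 2397 bp in WT. Within the outer 1 Mb of the arms the difference between 3L and the other windows was 2086 bp. Peaks covered 14.2 and 12.4% of the 3L window in dH1 RNAi and 12.5 and 16.2% in WT.

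Peaks of the X window were the weakest. Their median within-list percentile was 27.8 and 33 in dH1 RNAi and 36.3 and 33.5 in WT, against means of 57.1, 57.3, 55.9 and 52.0 in the other 3 windows of the same libraries. The difference of -22.9 ± 4.95 percentile points (SD, n = 4) was negative in all 4 libraries (exact sign-flip p = 0.13). On X outside the window the medians were 35.8 and 38.6 in dH1 RNAi and 43.9 and 36.8 in WT. In peak number the X window had 22.6 ± 8.75 peaks per Mb against 28.8 ± 3.18 in the other 3 windows (SD, n = 4, exact sign-flip p = 0.25), lower in 3 of 4 libraries. By library the difference was -9.51 and -14.8 peaks per Mb in dH1 RNAi and 1.65 and -2.02 in WT. The X window had 20 and 11.5 peaks per Mb in dH1 RNAi and 28 and 31 in WT. On X outside the window the values were 22.3 and 14.6 in dH1 RNAi and 24.4 and 26.6 in WT. The 3R window had 18.5 and 17.0 in dH1 RNAi and 19.0 and 20.5 in WT. The difference of -6.18 peaks per Mb was -9.22 at equal list size and -13.7 in windows of 1 Mb (exact sign-flip p = 0.13 for each, the smallest possible), and -3.29 without dH1 RNAi replicate 2. The arm contrasts of width and percentile were chosen after the values were seen.

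The comparison of dH1 RNAi with WT asked whether dH1 depletion changed where γH2Av was called near the telomere ends. With 2 libraries against 2, no exact permutation test can give a two-sided p below 0.33. In all windows, 217 and 181 peaks were called in dH1 RNAi and 214 and 260 in WT. The means were 199 ± 25.5 and 237 ± 32.5 peaks (SD, n = 2), and the conditions overlapped (exact permutation p = 0.667). As a share of each list, the windows held 5.81 and 5.96% of the peaks in dH1 RNAi and 5.69 and 6.62% in WT (exact permutation p = 1). Covered length was 670 and 553 kb in dH1 RNAi and 662 and 785 kb in WT, a difference of -112 kb (exact permutation p = 0.667). It was -55.4 kb at equal list size, -174 kb without WT replicate 1, -171 kb without dH1 RNAi replicate 1, -53.6 kb without dH1 RNAi replicate 2 and -50.9 kb without WT replicate 2. The ratio of mean covered length, dH1 RNAi to WT, was 0.845 in the windows and 0.864 on the rest of the 4 arms.

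Median peak width was 2578 and 2603 bp in dH1 RNAi and 2577 and 2457 bp in WT. The replicates did not overlap, but by 1 bp only (difference 73.5 bp, exact permutation p = 0.33), and at equal list size the difference became -123 bp. The median within-list percentile was 51.1 and 50.5 in dH1 RNAi and 50.4 and 46.6 in WT (difference 2.34, exact permutation p = 0.33). Without WT replicate 2 the difference was 0.451.

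Most of the difference in the number of peaks between the full lists lay on X. The X window had 40 and 23 peaks in dH1 RNAi and 56 and 62 in WT, or 31.5 ± 12 and 59.0 ± 4.24 peaks (SD, n = 2), a ratio of 0.534. Both dH1 RNAi libraries lay below both WT libraries (exact permutation p = 0.33). On 2L there were 66 and 54 peaks in dH1 RNAi and 59 and 72 in WT, and on 3L there were 74 and 70 in dH1 RNAi and 61 and 85 in WT. These arms overlapped between conditions. The 3R window had 37 and 34 peaks in dH1 RNAi and 38 and 41 in WT. These did not overlap but differed by 4 peaks on average, and as a share of the list they did (0.991 and 1.12% in dH1 RNAi, 1.01 and 1.04% in WT).

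**Figure D4:**
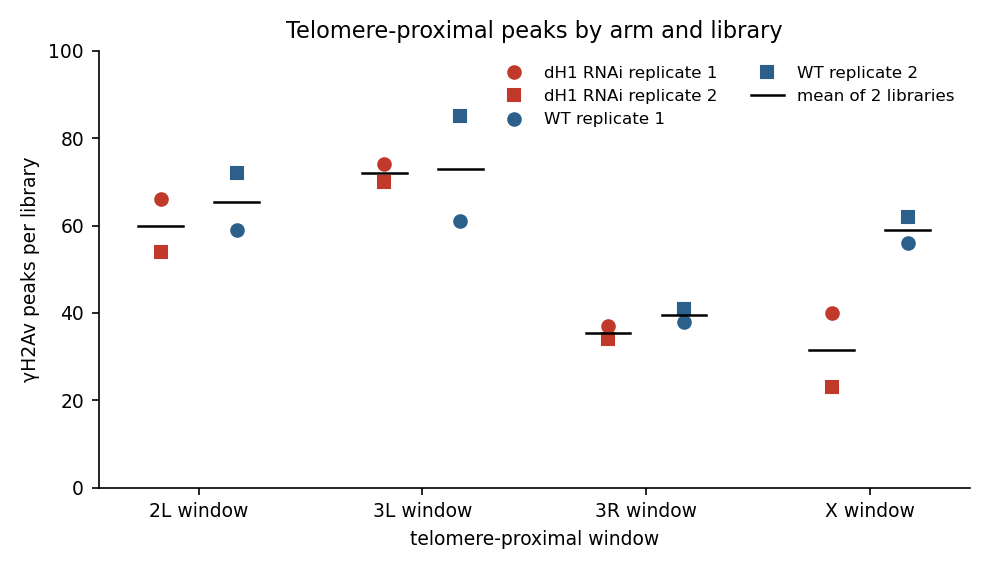
Peaks per library (vertical axis, from 0) in each telomere-proximal window, with dH1 RNAi libraries in red left of WT libraries in blue and black bars at the mean of 2 libraries. On X the dH1 RNAi libraries have 40 and 23 peaks and the WT libraries 56 and 62, whereas the conditions overlap on 2L and 3L.

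X supplied 18.4 and 12.7% of the telomere-proximal peaks in dH1 RNAi and 26.2 and 23.8% in WT, a difference of -9.44 percentage points (exact permutation p = 0.33, the smallest possible). When every list was cut to its 3037 best peaks (equal list size), the difference was -7.72 points, and it lay between -12.3 and -6.57 points without 1 library. Fewer X peaks in dH1 RNAi were also found outside the window, with 455 and 299 in dH1 RNAi and 499 and 543 in WT. The window held 8.08 and 7.14% of all X peaks in dH1 RNAi and 10.1 and 10.2% in WT (difference -2.56 points, exact permutation p = 0.33). These shares of X were computed after the counts had been seen.

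Within the X window the difference lay in its outer part. In the outer 500 kb, 9 regions were found, of which 2 and 1 were called in dH1 RNAi and 8 and 9 in WT. On X outside the window, 70.9 and 46.0% of the 615 regions were called in dH1 RNAi and 78.7 and 86.2% in WT, so that dH1 RNAi replicate 2 called the fewest regions there too. None of the 9 was called in all 4 libraries, against 41.6% of the regions on X outside the window and 49% of all merged regions. In the outer 500 kb of 2L, 3L and 3R, 44 of 80 regions were called in all 4 libraries. Over the outer 1750 kb of X, 20 and 10 of 44 regions were called in dH1 RNAi and 35 and 42 in WT. In the innermost 250 kb of the window 18 and 11 of 22 regions were called in dH1 RNAi and 16 and 19 in WT, and the conditions overlapped there. These stretches were chosen after the counts per 250 kb had been seen.

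Calls were then compared region by region. Of the 281 regions, 132 were called in all 4 libraries (47.0%, 95% Wilson interval 41.2 to 52.8%), against 49% of all merged regions and 54.1% of those on the rest of the 4 arms. The share was 51.3% on 2L (40 of 78), 52.2% on 3L (47 of 90), 55.3% on 3R (26 of 47) and 28.8% on X (19 of 66, 19.3 to 40.6%). On X outside the window it was 41.6% (256 of 615). Both dH1 RNAi libraries called 158 telomere-proximal regions (56.2%, against 56.4% of all regions), and both WT libraries called 177 (63.0%, against 61.4%). Intervals cover counting error only, and they take regions as independent, which neighbouring regions are not.

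Condition-specific regions, those that both libraries of a condition called and no library of the other did, comprised 2 dH1-only and 16 WT-only. The dH1-only share was 0.712% (95% Wilson interval 0.195 to 2.56%), with a background of 1.06% over all merged regions. At the centromere-side ends of the same arms it was 4.91% (16 of 326, 3.04 to 7.82%). The WT-only share was 5.69% (3.53 to 9.05%), with a background of 3.64%. Of the 16, 13 lay on X, which makes 19.7% of the 66 X regions (11.9 to 30.8%) and 1.4% of the 215 regions on the other arms (3 of 215, 0.476 to 4.02%). On X outside the window the share was 9.11% (56 of 615, 7.08 to 11.6%). At equal list size the WT-only counts were 6 of 48 regions in the X window (12.5%) and 43 of 472 on the rest of X (9.11%), so that the shares lay closer together. With peaks up to 1000 bp apart joined, the counts were 10 of 56 (17.9%) and 49 of 509 (9.63%). With regions of a single library included, 6 regions were called in no WT library (2.14%, against 4.92% of all regions) and 68 in no dH1 RNAi library (24.2%, against 23%).

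WT-only regions were narrow and mostly weak. They belong to the 40 regions called in 2 libraries, whose median width was 2071 bp and median best percentile 27.2. The peaks of WT-only regions were 1113 to 2623 bp wide in WT replicate 1 and 1155 to 2609 bp in WT replicate 2. Their median percentile was 23.8 and 19.3 in these lists. The best ranked was X 1359254 to 1361862, with ranks 2060 and 2299 in WT. X 1273816 to 1275762 had ranks 2546 and 2622, and X 1133161 to 1134888 had ranks 2614 and 2749. On 3L, 1630304 to 1632500 ranked 2811 and 2745. The others named by the rule were all on X, at 920104 to 921849 (ranks 2858 and 3045), 138790 to 141582 (1867 and 3070), 834081 to 835732 (3120 and 3091) and 540023 to 541990 (2800 and 3242). At 138790 to 141582 the WT replicates differed most, with peaks of 2623 bp in replicate 1 and 1360 bp in replicate 2.

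Of the 2 dH1-only regions, 2L 446684 to 454428 was broad. Its peak was 7729 and 7667 bp wide in the dH1 RNAi libraries, at ranks 2283 and 2182, and no peak overlapped it in WT. A peak of 6029 bp at 2L 455081 to 461109, just inwards of it, was called in dH1 RNAi replicate 1 alone. The other dH1-only region, X 1945065 to 1947807, had peaks of 1889 and 2710 bp at ranks 2587 and 2446. It lay next to X 1948083 to 1951248, which was called in WT replicate 2 alone, and it was no longer dH1-only once peaks within 1000 bp of each other were joined.

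Finally, the strength of shared regions was compared. Since shorter lists lower the percentile of a peak, the 2320 regions of all 4 libraries in the genome were ranked among themselves in each library, a choice made after the data were seen. Of the 132 telomere-proximal ones, 21 (15.9%) ranked higher in both dH1 RNAi libraries than in both WT libraries, with a background of 14%, and 19 (14.4%) ranked lower, with a background of 18.6%. Ranked within whole lists, 13 were higher (9.85%, background 9.18%) and 28 lower (21.2%, background 24.6%). The median difference, dH1 RNAi minus WT, was -2.72 percentile points within whole lists (quartiles -10.6 and 3.93) and -0.04 points among shared regions (quartiles -7.31 and 8.66). By arm, the numbers higher and lower among shared regions were 4 and 7 of 40 on 2L, 10 and 5 of 47 on 3L, 6 and 2 of 26 on 3R and 1 and 5 of 19 on X. The median difference was 3.68 points on 3R and -6.83 points on X. Outside the windows it was 2.11 points on 3R and -6.94 points on X, the latter close to the value in the window.

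**Figure D5:**
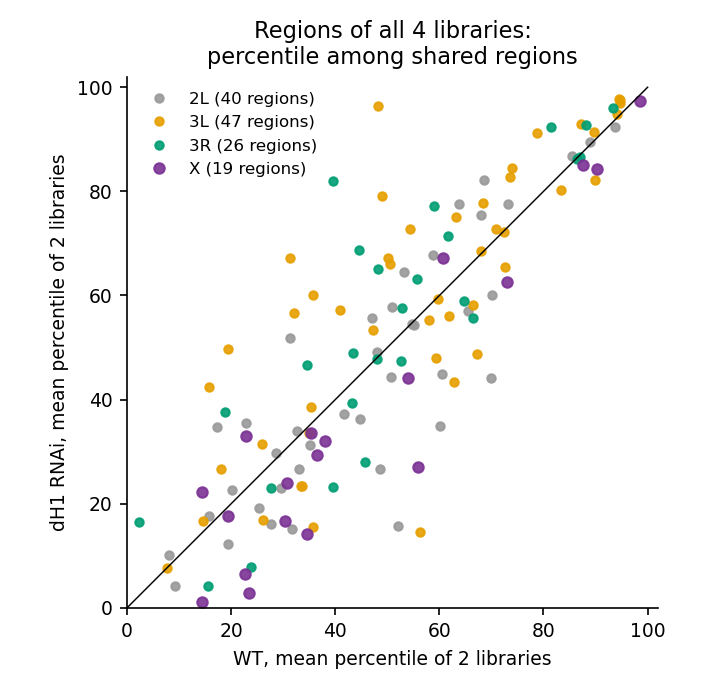
Each point is 1 of the 132 telomere-proximal regions called in all 4 libraries, with its mean percentile among shared regions in the 2 dH1 RNAi libraries (vertical) against that in the 2 WT libraries (horizontal), coloured by arm; the line marks equal values. Most X regions lie below the line (median difference -6.83 percentile points).

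Among shared regions whose conditions did not overlap, some of the largest shifts went to higher and some to lower percentiles in dH1 RNAi, and 5 are given here, picked after their values were seen. They are not the 5 largest. Upward shifts on 3L at 1535930 to 1539004 (30.2 points), 255190 to 260997 (30.2) and 1494427 to 1497556 (26.7) were left out. Each exceeded the shift of the last region given (-25.9 points). At 3R 26407875 to 26411507 the percentile among shared regions was 75.9 and 88.3 in dH1 RNAi and 54.8 and 24.3 in WT. On 3L, 1575274 to 1581239 stood at 69.1 and 65.5 in dH1 RNAi and at 22.9 and 39.8 in WT. In contrast, 3L 1937518 to 1941977 stood at 21.9 and 7.42 in dH1 RNAi and at 47.9 and 64.6 in WT. At 2L 272899 to 275130 the values were 21.0 and 10.5 in dH1 RNAi and 64.2 and 39.8 in WT. On 2L, 104026 to 108828 stood at 38.2 and 50 in dH1 RNAi and at 70.9 and 69.1 in WT, and its peak was 2880 and 2808 bp wide in dH1 RNAi and 4577 and 4803 bp in WT. Replicates of a condition lay far apart at several of these regions, as the WT values at the first show.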

How the data were processed

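The authors aligned reads to dm3 (Bowtie 0.12.5, 2 seed mismatches, up to 10000 sites kept per read) and removed duplicates (sambamba 0.5.1). For every ChIP library they then called peaks over the matching input (MACS 1.4, p below 1e-05), and replicates were not pooled. The deposited lists give start, end and a score per peak, −10 times the log10 of the caller's p-value (lowest value 50.01). The score grows with read depth, which is unknown, so it was used only to rank peaks within a list. Series-level copies of the 4 lists held the same values and were left out. Positions are printed counted from 1.

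Groups and replicates follow the labels, and per the paper the replicates were independent biological ones. Merging, ranking and tests were done in Python 3.11.15 (numpy 2.4.6, scipy 1.17.1, and matplotlib 3.10.9 for plots). A peak followed the region to which it belonged. Arm length was the highest peak end in the 4 lists. Conditions were compared with exact permutation tests over the 6 labelings, and positions within libraries with exact sign-flip tests over the 4 libraries, all two-sided. Named regions were the condition-specific ones (at most 8 per class by worst rank), the outermost of each arm, the 6 of all 4 libraries with the best worst-case rank and the widest shared region of each arm. Alternatives were a minimum score of 100, equal list size (3037 peaks), windows of 1 Mb, leaving out each library, blocking on the replicate number, other merging rules, and the rest of the arms without its centromere-side ends. The procedure was tested on simulated lists. Members, lists and rules were chosen with earlier results of these data known. Genes and sequence were not analysed here, since the available gene table belongs to a different build.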

Additional observations from a re-analysis of the deposited data

Results flagged for a closer look

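The median within-list percentile of telomere-proximal peaks differed in opposite directions on different arms, with both dH1 RNAi libraries on the same side of both WT libraries. On 3R the medians were 57.5 and 64.2 in dH1 RNAi and 53.0 and 48.1 in WT, a difference of 10.3 points. On 2L they were 46.9 and 48.8 in dH1 RNAi and 51.1 and 51.4 in WT (-3.44 points), and on X 27.8 and 33 in dH1 RNAi and 36.3 and 33.5 in WT (-4.52 points). Outside the windows the difference was -1.49 points on 3R, -3.55 on 2L and -3.13 on X, where the conditions overlapped. The 2L and X differences were thus similar along the rest of their arms, and that of 3R was not. These medians come from lists of different length and with different peaks. Over regions of all 4 libraries, ranked among themselves, the median difference was 3.68 points on 3R, -0.39 on 2L and -6.83 on X. Outside the windows it was 2.11 points on 3R, -1.15 on 2L and -6.94 on X. The difference between the arms was not tested, and the 3L window overlapped between conditions.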

How the results depend on the processing

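No test passed 0.05 under any setting, and with so few libraries none could. Of 149 values under alternatives for 18 results, 128 kept their direction or size. The 128 include the values blocked on replicate number, as labelled and crossed, for the 7 condition results. Those equal the unblocked differences by construction and could not have changed. At equal list size the median width differed between dH1 RNAi and WT by -123 bp, the density of the windows from the rest of the arms by -0.0811 peaks per Mb, and WT-only regions numbered 9. With windows of 1 Mb that density difference was -0.688, the percentile difference 1.12, the outer minus inner difference 14.1 peaks per Mb (the 500-kb stretches given above), and 1 region was dH1-only. A minimum score of 100 also left 1, as did joining peaks within 1000 bp of each other. The cause of these changes was not tested, except that shorter windows hold fewer regions.

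Without 1 library, dH1 RNAi minus WT ranged from -61 to -15 peaks and from -0.738 to 0.196 points of the share of the list (positive when WT replicate 2 was left out). The density difference ranged from -0.681 (without WT replicate 2) to 0.589 peaks per Mb. Regions of all libraries ranged from 48.4 to 56.4%, dH1-only regions from 5 to 21 and WT-only regions from 19 to 55. Classes need fewer calls with 3 libraries, which raises these counts. The highest were those without WT replicate 2 (dH1-only) and without WT replicate 1 (WT-only).

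Blocking on the replicate number left the mean differences at their values (-38 peaks), as it must by construction. The pairs differed by 3 and -79 peaks and by -7.74 and -11.1 points of the X share, and an exact sign-flip test over 2 pairs cannot give a p below 0.5. Over 2320 shared regions, the deviations of libraries with the same number had a correlation of -0.143. With crossed numbers, 0 of 7 results passed the threshold, and this test cannot pass it.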
